A study of Mus musculus with 8 samples.

Results

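The multidrug efflux transporters examined here are the 7 genes Abcb1a, Abcb1b, Abcc1, Abcc3, Abcc4, Abcc5 and Abcg2, chosen by name and matched by symbol to the gene identifiers of the deposited tables. All 7 of the 7 were among the 55487 genes counted and all 7 were among the 14228 that passed the expression filter. They belong to the ATP-binding cassette (ABC) family, membrane proteins that use ATP to move substrates across a membrane, and these members carry drugs, drug conjugates or signaling molecules out of the cell. Abcb1a and Abcb1b are the pair of mouse genes that encode P-glycoprotein, for which human cells have a single gene, ABCB1. Abcc1, Abcc3, Abcc4 and Abcc5 encode multidrug resistance-associated proteins (MRPs), which export glutathione conjugates, glucuronides, organic anions and nucleotide analogs, and Abcg2 encodes the breast cancer resistance protein. In tumors these exporters are known for lowering the intracellular concentration of chemotherapeutic drugs.

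RNA was measured in Lewis lung carcinoma (LLC) cells, a transplantable mouse lung carcinoma line, grown in culture in DMEM with 10% fetal bovine serum of embryonic stem cell grade and penicillin-streptomycin, without any further treatment. Of the 8 libraries, 4 came from wild-type and 4 from ΔAgo2 cells, in which the gene for Argonaute 2, the slicing Argonaute of microRNA-guided silencing, was targeted with a lentiviral CRISPR vector. Per the study's methods the ΔAgo2 cells went through puromycin selection and single-cell sorting, and the methods do not describe the same steps for the wild-type cells. Puromycin is a known substrate of P-glycoprotein, so for these genes the genotype, the selection and the choice of a clone cannot be told apart. All 8 libraries were taken as batch 1. The labels number them as biological replicates 1 to 4 of each genotype and name no batch. They do not say whether replicates were separate thaws or dishes, so the errors below cover only the spread between these samples.

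Library totals ranged from 39628101 to 68530912 counts. Wild-type replicate 4 stood apart from the other libraries, with 0.54% of its counts on mitochondrial genes against 2.39% to 4.51% in the other 7, and with a composition that followed base content. The Spearman coefficient between the GC content of a gene's longest transcript and its log2 deviation from the other wild-type libraries was 0.72 in replicate 4 and between -0.52 and -0.44 in replicates 1 to 3. For replicates 1 to 3 the other libraries include replicate 4, so their coefficients cannot be read as a trend of their own. Member levels are given for each library, and the fold change of a named gene without replicate 4 stands beside the main value where it changed by more than 1.5 times or turned in sign. The Ago2 transcript measured 119 to 520 CPM (reads per 1000000 counted, with scaled library sizes) in wild-type and 293 to 408 CPM in ΔAgo2 libraries, with a log2 fold change of 0.21 (SE 0.40) for ΔAgo2 over wild-type and of -0.05 without wild-type replicate 4. A small edit at a guide's cut need not remove a transcript, so this RNA count does not check the labels. Of the 9 listed mesenchymal markers 8 passed the filter, with summed levels of 4882 to 8472 CPM in wild-type and 6830 to 7659 CPM in ΔAgo2. Of the 9 listed markers of lung epithelium and carcinoma 3 passed it, the keratin genes Krt8, Krt18 and Krt19, with sums of 114 to 1259 CPM and 313 to 509 CPM; without replicate 4 the highest wild-type sum was 312 CPM. The defining epithelial markers Epcam and Cdh1 reached at most 1 and 9 counts in a library, and Nkx2-1 was at 0 in all 8. The leukocyte marker Ptprc reached at most 2 counts, while Cd68 carried the leukocyte list's sums of 5.34 to 38.4 CPM in wild-type and 4.56 to 16.5 CPM in ΔAgo2. The summed endothelial, erythroid and liver markers stayed at or under 0.998, 0.0407 and 0.19 CPM. Fewer cells that express a gene and less of its RNA per cell cannot be told apart in such bulk samples.

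Abcb1a (ENSMUSG00000040584.8; GRCm38 chr5:8660077-8748575, plus strand) and Abcb1b (ENSMUSG00000028970.9; chr5:8798147-8866315, plus strand) lie head to tail, 49571 bases apart. Their coding sequences are 3831 bases long each and identical at 88.26% of the aligned bases, so their reads had to be separable for the genes to be compared. Of the 4898 windows of 100 bases, the read length, in the longest Abcb1a transcript, 367 (7.49%) also occurred in an Abcb1b transcript, and 11 (0.225%) in a transcript of Abcb4, the third gene of the cluster. The longest run shared by the aligned coding sequences of Abcb1a and Abcb1b was 338 bases. Reads within such runs can belong to either gene, and how the counting treated them is not given in the sources used here. Gm5106 overlaps the start of Abcb1b on the opposite strand with 4 to 33 counts per library, 0.603% of the reads counted on Abcb1b, and without strand in the counting the reads of the overlap cannot be told apart. 7330423F06Rik lies within the span of Abcb1b on the same strand, with 1 to 36 counts per library, 0.465% of the reads counted on Abcb1b. Strand cannot tell its reads apart from those of Abcb1b. The stretch of 90 coding bases that differed most without a gap holds 29 differences and lies in exon 16 of 28 of both genes, at chr5:8714894-8714983 in Abcb1a and chr5:8827333-8827422 in Abcb1b. It belongs to the linker that joins the homologous parts of P-glycoprotein and shows how reads tell the genes apart. Capitals mark the differing bases.
Abcb1a: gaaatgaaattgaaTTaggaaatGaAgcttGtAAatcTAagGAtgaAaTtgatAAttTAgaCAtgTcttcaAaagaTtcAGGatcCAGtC
Abcb1b: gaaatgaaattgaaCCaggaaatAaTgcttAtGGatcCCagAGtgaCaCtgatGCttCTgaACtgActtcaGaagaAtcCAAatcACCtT

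Abcb1a showed the largest difference between the genotypes among the 7 members. Its level was 29.4, 47.1, 26.3 and 2.86 CPM in wild-type replicates 1 to 4 and 5.60, 4.54, 3.43 and 2.61 CPM in ΔAgo2 replicates 1 to 4. Wild-type replicates 1 to 3 lay above all 4 ΔAgo2 libraries, and wild-type replicate 4 lay among them, so the groups overlapped. These values rest on 1444, 3322, 1773 and 92 counts in wild-type and on 344, 191, 140 and 138 counts in ΔAgo2. The means (n = 4, with SD) were 26.4 ± 18.2 CPM for wild-type and 4.04 ± 1.30 CPM for ΔAgo2, 6.53-fold higher in wild-type. The fitted log2 fold change of ΔAgo2 over wild-type was -2.71 (SE 0.67), and -3.08 (SE 0.32) without wild-type replicate 4. Because the members were chosen with this contrast in view, these differences are a description and carry no test.

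Abcb1b, the neighbor with the same known function, differed in the same direction by less. It measured 68.2, 62.5, 57.2 and 8.48 CPM in wild-type and 30.9, 29.9, 31.0 and 21.1 CPM in ΔAgo2. Again wild-type replicates 1 to 3 were above every ΔAgo2 library, while replicate 4 was the lowest of the 8. The means were 49.1 ± 27.4 CPM and 28.2 ± 4.75 CPM (SD, n = 4 each), and the log2 fold change was -0.80 (SE 0.52), or -1.14 (SE 0.18) without wild-type replicate 4. On log2(TPM + 1) it was -0.29, and that of Abcb1a -1.78, where the median of all genes was 0.15. In wild-type replicate 4 the log2 level of Abcb1a was lower than the mean of the other wild-type libraries by 3.33, and that of Abcb1b by 2.81. The transcripts of both genes have nearly the same GC content, 45.2% and 45.7%. The 1391 tested genes with 44% to 46% GC had a median deviation of -0.84 in that library. This median does not give the spread of single genes around it. Whether the base composition of this library sets its Abcb1 levels was not tested.

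**Figure D1:**
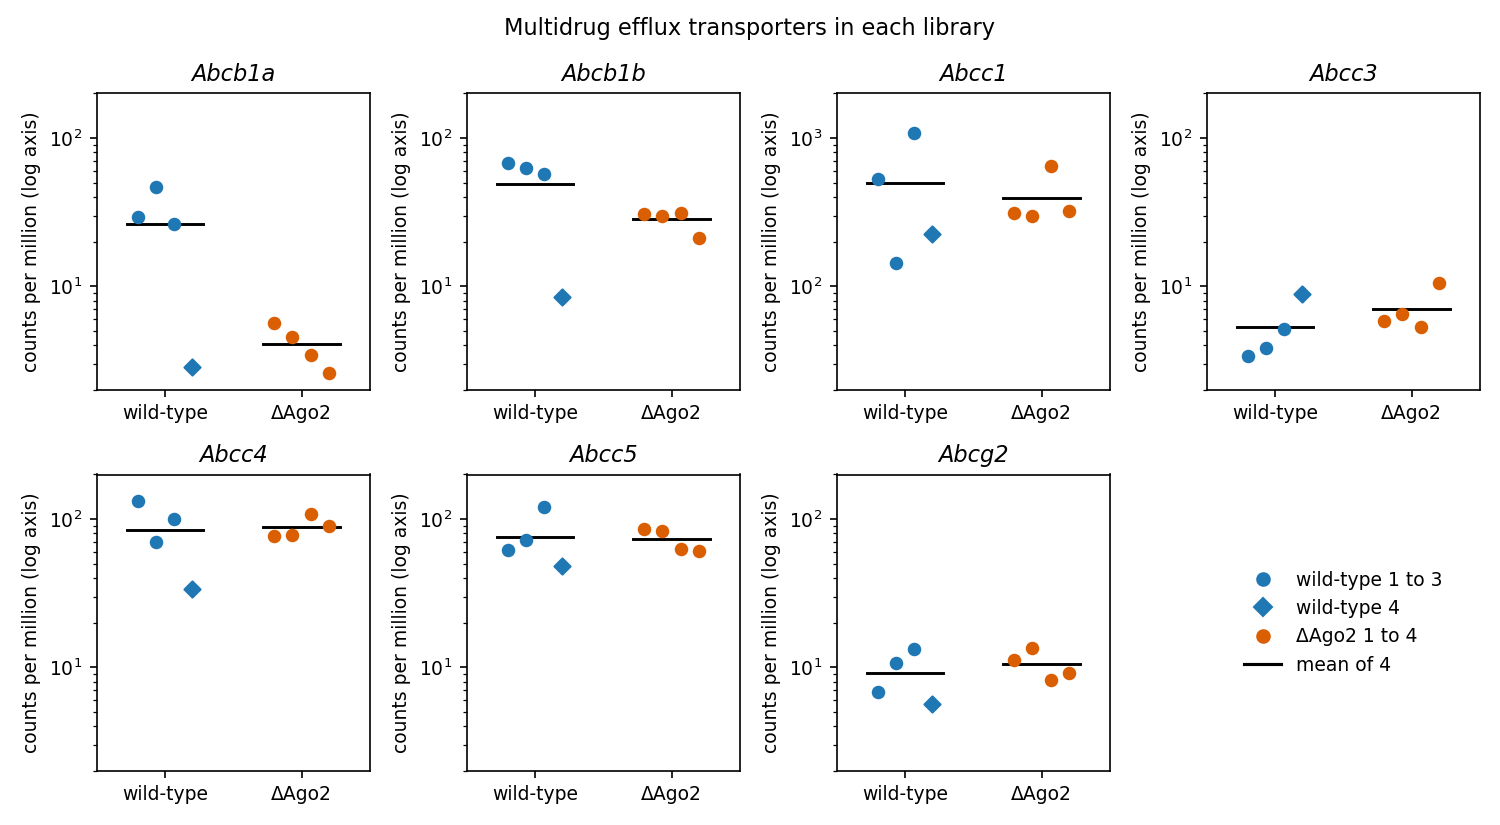
Level of each efflux transporter gene in each of the 8 libraries, in CPM on a log axis; the axis of Abcc1 starts 10-fold higher than the others. Blue circles are wild-type replicates 1 to 3, the blue diamond is wild-type replicate 4, orange circles are ΔAgo2 replicates 1 to 4 and black lines are means of 4. Wild-type replicates 1 to 3 lie above all ΔAgo2 libraries for Abcb1a (26.3 to 47.1 against 2.61 to 5.60) and Abcb1b, and the diamond lies among the ΔAgo2 values for Abcb1a (2.86) and below them for Abcb1b (8.48).

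The ratio of both genes within a library does not depend on the scaling of that library, so it was compared directly. Abcb1a made up 30.1% (95% Wilson interval 28.8% to 31.4%), 43.0% (41.9% to 44.1%), 31.5% (30.3% to 32.8%) and 25.2% (21.0% to 29.9%) of the reads counted on the pair in wild-type replicates 1 to 4. In ΔAgo2 replicates 1 to 4 it made up 15.4% (13.9% to 16.9%), 13.2% (11.5% to 15.0%), 9.98% (8.52% to 11.7%) and 11.0% (9.38% to 12.8%). Every wild-type library, replicate 4 included, had a higher share of Abcb1a than every ΔAgo2 library, and the intervals did not touch. The intervals cover counting error only. The mean share was 32.5% ± 7.5 (SD, n = 4) in wild-type and 12.4% ± 2.39 (SD, n = 4) in ΔAgo2. In TPM, the authors' measure scaled to gene length and library size, Abcb1a was at 16.5, 33.6, 16.5 and 1.16 in wild-type and 3.86, 3.01, 2.12 and 1.68 in ΔAgo2. Abcb1b measured 26.4, 30.6, 24.5 and 2.35 TPM in wild-type and 14.6, 13.6, 13.1 and 9.34 TPM in ΔAgo2. The TPM ratio of Abcb1a to Abcb1b was thus 0.628, 1.10, 0.672 and 0.494 in wild-type and 0.265, 0.222, 0.162 and 0.180 in ΔAgo2. On the log2 scale the mean ratio was -0.53 ± 0.48 in wild-type and -2.30 ± 0.32 in ΔAgo2 (SD, n = 4 each), a difference of -1.77 for ΔAgo2 minus wild-type, and -1.93 without wild-type replicate 4. Both genes of the ratio chose the members, so it has no test either. The size of the ratio depends on the length used. The deposited TPM imply that Abcb1a was 0.685 times as long as Abcb1b, close to the ratio of the unions of their annotated exons (5480 and 7990 bases), whereas its longest transcript is 1.16 times as long (4997 and 4306 bases). The difference between genotypes is untouched by that choice.

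**Figure D2:**
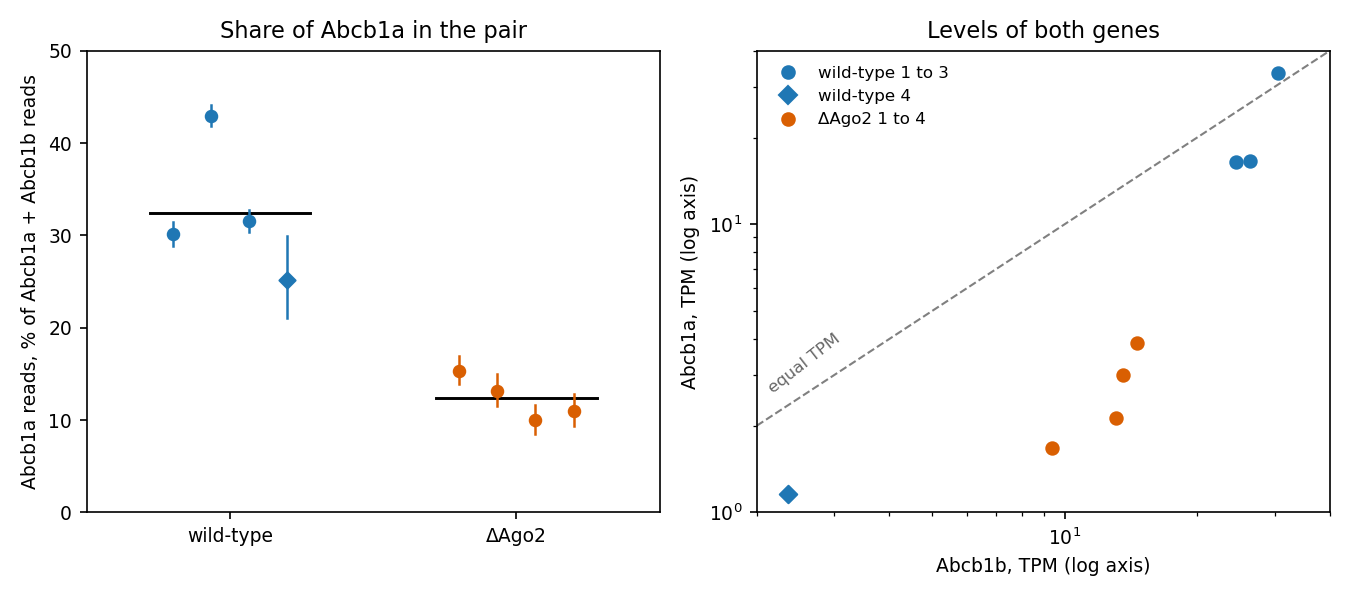
Left, reads of Abcb1a as a percentage of the reads of Abcb1a and Abcb1b in each library, with 95% Wilson intervals as vertical bars and group means as black lines. Right, TPM of Abcb1a against TPM of Abcb1b on log axes, with a dashed line at equal TPM. The 4 wild-type shares, 25.2% to 43.0%, all lie above the 4 ΔAgo2 shares, 9.98% to 15.4%, and the diamond of wild-type replicate 4 is low for both genes but lies with its own group for the ratio.

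Abcb4, which encodes the phosphatidylcholine transporter of bile canaliculi and is the third gene of the cluster (chr5:8893717-8959231), was near the detection limit. It had 47, 15, 2 and 4 counts in wild-type and 2, 2, 1 and 0 counts in ΔAgo2, and it did not pass the filter. The value of 47 in wild-type replicate 1 exceeded the sum of the other 7 libraries, so no fold change is given.

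Among the MRP genes, Abcc1, the broad exporter of glutathione conjugates, was the most abundant and the most variable. The gene (ENSMUSG00000023088.17; chr16:14361558-14475737, plus strand) measured 532, 143, 1077 and 224 CPM in wild-type and 310, 297, 644 and 321 CPM in ΔAgo2. The wild-type libraries spanned the whole range of the ΔAgo2 libraries on both sides. The log2 fold change was -0.33 (SE 0.58), its sign turned to 0.39 when wild-type replicate 3 was left out, and it was -0.56 without wild-type replicate 4. In TPM its deposited values were 109, 37.1, 244 and 32.9 in wild-type and 77.6, 71.4, 144 and 75.1 in ΔAgo2.

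Abcc4, a carrier of cyclic nucleotides and prostaglandins (ENSMUSG00000032849.14; chr14:118482692-118706219, minus strand), measured 132, 69.8, 99.9 and 33.9 CPM in wild-type and 76.7, 78.5, 108 and 89.1 CPM in ΔAgo2. The ΔAgo2 values lay inside the wild-type range, with a log2 fold change of 0.07 (SE 0.38) and of -0.18 without wild-type replicate 4. Abcc5, which also carries cyclic nucleotides (ENSMUSG00000022822.16; chr16:20331303-20426394, minus strand), measured 62.0, 71.9, 121 and 47.9 CPM in wild-type and 85.4, 83.2, 62.5 and 61.0 CPM in ΔAgo2. Its ΔAgo2 values also lay inside the wild-type range, and its log2 fold change was -0.05 (SE 0.32), or -0.21 without wild-type replicate 4.

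Abcc3, a basolateral exporter of glucuronides in liver and gut (ENSMUSG00000020865.16; chr11:94343295-94392997, minus strand), was low, with 3.38, 3.83, 5.13 and 8.82 CPM in wild-type and 5.84, 6.53, 5.32 and 10.4 CPM in ΔAgo2. All ΔAgo2 values were above wild-type replicates 1 to 3, and wild-type replicate 4 was the second highest of the 8. It was the only member that wild-type replicate 4 held above the other wild-type libraries. The log2 fold change was 0.41 (SE 0.40), and 0.78 (SE 0.32) without that library. Abcg2, which exports drugs, urate and porphyrins (ENSMUSG00000029802.13; chr6:58584523-58695676, plus strand), measured 6.83, 10.7, 13.2 and 5.62 CPM in wild-type and 11.1, 13.4, 8.16 and 9.10 CPM in ΔAgo2. The groups overlapped and the log2 fold change was 0.20 (SE 0.35), which was 0.03 without wild-type replicate 4 and turned to -0.29 under a correction for GC content.

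In edgeR's quasi-likelihood fit, 0 of the 7 members passed a Benjamini-Hochberg adjusted p of 0.05 over all genes, at which 0.295% of the tested genes were called. An unadjusted p under 0.05 was reached by 1 member, Abcb1a, and by 7.34% of the tested genes. The groups of 0 members were free of overlap, against 6.07% of the tested genes. Without wild-type replicate 4, 2 members were called, Abcb1a and Abcb1b, where 0.777% of the tested genes were called. The ΔAgo2 values then lay wholly below those of wild-type for 2 members (6.2% of the tested genes) and wholly above for 1, Abcc3 (5.9% of the tested genes). With all 8 libraries, DESeq2 called 1 member, Abcb1a, and 2.23% of the genes it tested, and limma-voom with quality weights also called only Abcb1a, and 1.81% of genes. These counts follow from the choice of members and nothing is read from them. The member log2 fold changes had a median of -0.05, and those of all tested genes a median of -0.11.

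Per length, the order of the members was set by Abcc1 and Abcc4 at the top. In wild-type the mean TPM was 106 ± 98.7 for Abcc1, 43.0 ± 22.5 for Abcc4, 23.2 ± 12.3 for Abcc5, 20.9 ± 12.7 for Abcb1b, 16.9 ± 13.3 for Abcb1a, 3.70 ± 1.94 for Abcg2 and 2.74 ± 0.69 for Abcc3 (SD, n = 4 each). The ranges of all neighbors in that order overlapped. Without wild-type replicate 4 the means had the same order, and the ranges of Abcc4 and Abcc5, and those of Abcb1a and Abcg2, no longer overlapped. In ΔAgo2 the order was Abcc1 (92.1 ± 34.9), Abcc4 (49.1 ± 5.85), Abcc5 (24.6 ± 5.39), Abcb1b (12.7 ± 2.29), Abcg2 (4.61 ± 1.16), Abcc3 (4.42 ± 1.43) and Abcb1a (2.67 ± 0.97). Here each of the first 4 steps separated the ranges of both neighbors, while the ranges of Abcg2 and Abcc3, and those of Abcc3 and Abcb1a, overlapped. Abcb1a had the lowest TPM of the 7 in all 4 ΔAgo2 libraries and in wild-type replicate 4, and stood at rank 3 or 5 in wild-type replicates 1 to 3. The P-glycoprotein genes together made up 18.0%, 36.0%, 10.6% and 5.56% of the summed TPM of the 7 in wild-type replicates 1 to 4, and 6.26% to 10.2% in ΔAgo2.

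The rest of the ABC family was examined to see where the members stand in it. Of 45 other ABC genes 27 passed the filter, and 0 passed an adjusted p of 0.05 by edgeR's quasi-likelihood test, at which 0.295% of all tested genes were called. DESeq2 called Abcg1, 1 of the 41 it fitted, some of which got no adjusted p. It called 2.23% of all genes with an adjusted p. At an unadjusted p under 0.05, 1 was higher in ΔAgo2 (2.72% of all tested genes) and 4 were lower (4.62% of all tested genes). The log2 fold changes were above 0 for 8 and below 0 for 19 of the 27, where 8364 of all 14228 tested genes were below 0. Their median was -0.34 against -0.11 over all tested genes, and -0.12 against -0.04 without wild-type replicate 4.

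Abcg1, a cholesterol exporter of macrophages and other cells, had 3, 1, 10 and 3 counts in wild-type and 35, 40, 20 and 16 counts in ΔAgo2. Its groups did not overlap, and the log2 fold change was 2.84 (SE 0.66), with an adjusted p of 0.172 by edgeR's quasi-likelihood test and of 0.00366 by DESeq2. Its level remained under 1 CPM in every library. The 4 genes on the lower side were Abca7, a lipid transporter, with a log2 fold change of -0.93 (SE 0.32); Tap1, a subunit of the antigenic peptide transporter, with -0.90 (SE 0.32); Abcf2, a cytoplasmic family member without membrane domains, with -1.02 (SE 0.37); and Abcc10, a further MRP, with -0.86 (SE 0.39). Their adjusted p by edgeR's quasi-likelihood test lay between 0.505 and 0.677. Without wild-type replicate 4 their log2 fold changes were -0.66, -0.62, -0.85 and -0.79. Only Abca7 had groups without overlap, with 54.3, 63.8, 98.8 and 130 CPM in wild-type and 51.8, 52.8, 38.2 and 39.7 CPM in ΔAgo2. The 18 ABC genes that did not pass the filter reached 0 to 47 counts in their highest library. Among them was Abcc2, the apical MRP of liver and kidney, with 2, 3, 5 and 0 counts in wild-type and 0 in all ΔAgo2 libraries, where a count of 0 allows up to 3 counts per library.

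**Figure D3:**
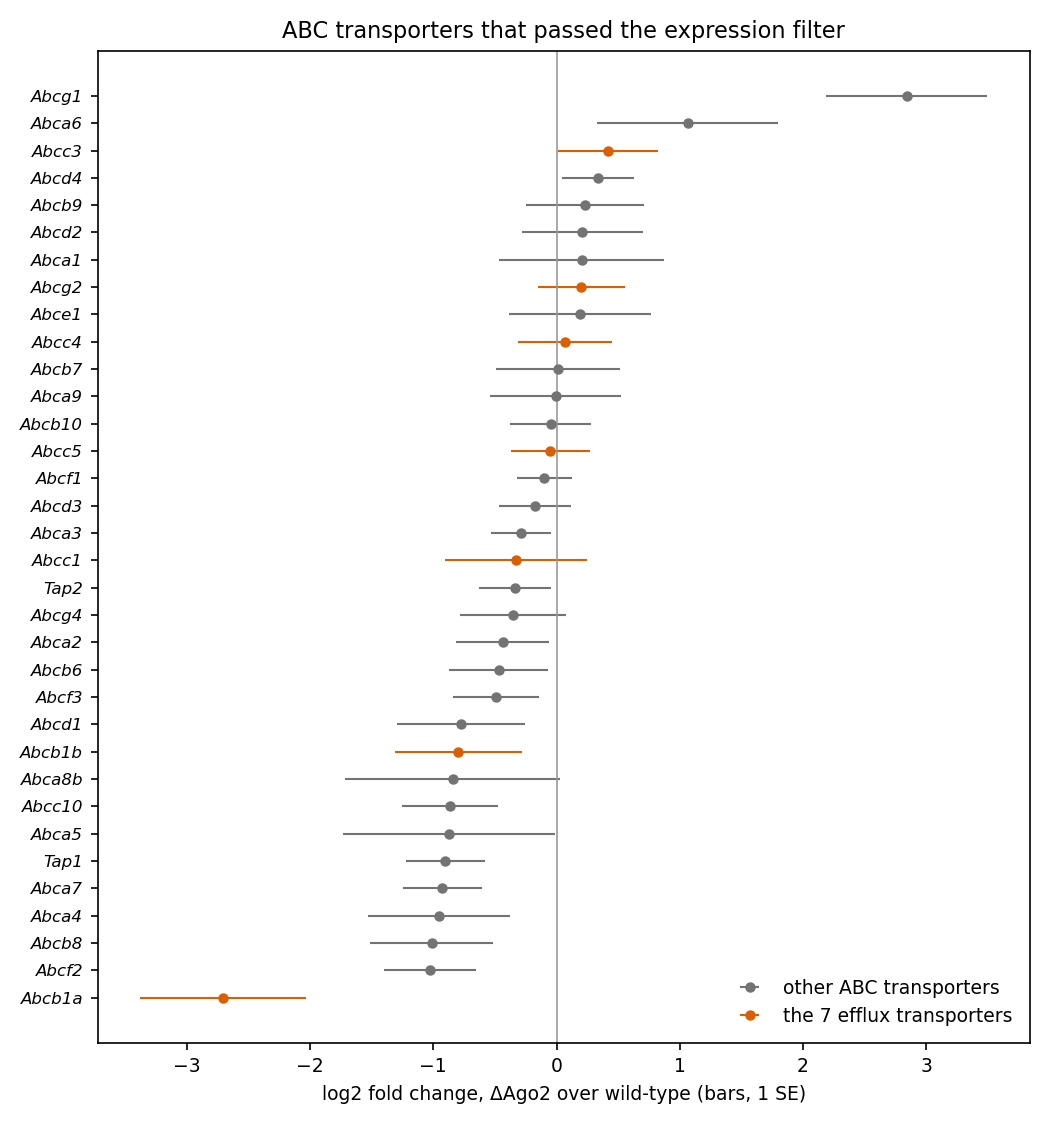
Log2 fold change of ΔAgo2 over wild-type for the 34 ABC genes that passed the filter, sorted by value, with bars of 1 standard error from the fit. Orange points are the 7 efflux transporters and gray points the 27 other ABC genes. Abcb1a has the lowest value (-2.71) and Abcg1 the highest (2.84), and the other 6 members lie between -0.80 and 0.41.

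The genes around the Abcb1 cluster were compared next, since Abcb1a and Abcb1b are neighbors. Of 17 other annotated genes within 250 kb of the pair 6 were tested, and no result is given for these 6 as a set. The locus list is another set, which leaves out Gm5106 and holds Sri, Adam22 and Dmtf1 from outside that window. Of the 10 listed genes of the locus 8 passed the filter, and 0 of them passed an adjusted p of 0.05 by edgeR's quasi-likelihood test. At an unadjusted p under 0.05, 2 were lower, Sri and Tmem243, where 4.62% of all tested genes were lower. DESeq2 called Sri (2.23% of all genes it tested), and limma-voom with quality weights called Tmem243 (1.81% of all tested genes). The log2 fold changes were below 0 for 7 of 8, with a median of -0.80, and below 0 for 8 of 8 with a median of -1.11 without wild-type replicate 4. Over all tested genes 8364 of 14228 were below 0, and 7886 of 14541 without that library. Without that library 6 of the 8 had an unadjusted p under 0.05, all lower, against 7.04% of all tested genes, and 0 passed the adjusted threshold, where the smallest adjusted p by edgeR's quasi-likelihood test was 0.0512 for Crot.

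Sri encodes sorcin, a calcium-binding protein known to be co-amplified with the Abcb1 genes in drug-selected cells. It measured 175, 246, 109 and 206 CPM in wild-type and 91.4, 95.6, 66.7 and 61.8 CPM in ΔAgo2. The groups did not overlap, wild-type replicate 4 included, with a log2 fold change of -1.22 (SE 0.31) and an adjusted p of 0.244 by edgeR's quasi-likelihood test and of 0.0223 by DESeq2. Crot, a peroxisomal carnitine octanoyltransferase that adjoins Abcb4, measured 81.0, 89.5, 48.8 and 10.0 CPM in wild-type and 35.9, 34.3, 27.2 and 28.6 CPM in ΔAgo2, a log2 fold change of -0.86 (SE 0.53), or -1.21 without wild-type replicate 4. Like Abcb1b it was lowest in wild-type replicate 4 and otherwise lower in every ΔAgo2 library. Tmem243, a small membrane protein gene, had a log2 fold change of -0.96 (SE 0.39), or -1.18 without wild-type replicate 4, and an adjusted p of 0.613 by edgeR's quasi-likelihood test and of 0.0362 by limma-voom with quality weights.

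For Adam22, a neuronal adhesion protein, Dbf4, the activator of the Cdc7 replication kinase, and Slc25a40, a mitochondrial glutathione carrier, the log2 fold changes were -0.92 (SE 0.62), -0.74 (SE 0.58) and -0.53 (SE 0.54). Single wild-type libraries moved them: Adam22 was at -0.15 without replicate 3, Dbf4 at -0.09 and Slc25a40 at -0.27 without replicate 2, and without replicate 4 the values were -1.12, -1.09 and -0.88. Dmtf1, a Myb-like transcription factor gene, had -0.03 (SE 0.55), or -0.39 without wild-type replicate 4, and Rundc3b, which lies on the opposite strand upstream of Abcb1a, had 0.16 (SE 0.64). The sign of Dmtf1 turned above 0 with library size alone, with TPM, with some libraries left out and in fits with the replicate number as a block, and that of Rundc3b turned below 0 to -0.09 without wild-type replicate 4.

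The low values around Abcb1a and Abcb1b were looked at on a larger scale after the values were seen, by the median log2 fold change of tested genes in steps of 2 Mb along each chromosome, over 532 steps with at least 10 tested genes. The step from 8 to 10 Mb of chromosome 5 ranked 2 from the lowest with both members included. Its median, -0.80, was the value of Abcb1b itself, so the rank rests partly on a chosen member. No rank was computed without the members. Without Abcb1a and Abcb1b the step's other 11 tested genes had a median of -0.77 against -0.11 over all tested genes. All 8 tested genes of the locus list are among these 11. Both sets of values thus rest largely on the same genes, and only Gm5106, Gm7332 and 9330182L06Rik were added. Of these 11, 10 were below 0, against 8364 of all 14228. Without wild-type replicate 4 the median was -1.09 against -0.04, with 11 of 11 below 0, against 7886 of all 14541. The lowest of the 11 was 9330182L06Rik (chr5:9266118-9481825), with 74, 80, 198 and 9 counts in wild-type and 6, 1, 1 and 5 counts in ΔAgo2. Its log2 fold change was -4.50 (SE 0.80), with an adjusted p of 0.0567 by edgeR's quasi-likelihood test and of 0.0172 without wild-type replicate 4, and it was called by DESeq2 and by limma-voom with quality weights as well. With all libraries, rank 1 of the 532 steps was that from 24 to 26 Mb of the same chromosome, where 32 of 32 tested genes had a value below 0 and the median was -0.88, against -0.80 for the step from 8 to 10 Mb with its members. With both members included, these ranks swapped without wild-type replicate 4 (-0.88 against -1.13) and with the GC correction (-0.77 against -0.83). That step holds 2 further ABC genes, Abcf2 and Abcb8, a mitochondrial family member with a log2 fold change of -1.01 (SE 0.50), or -0.51 without wild-type replicate 4. The steps of Abcc1, Abcc3 and Abcc5 ranked 236, 19 and 42 from the lowest, 187, 84 and 61 of 545 without wild-type replicate 4, and 153, 71 and 14 with the GC correction. Abcc4 and Abcg2 lie in steps with fewer than 10 tested genes.

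Library by library, the 11 genes between 8 and 10 Mb had a median log2 deviation from their mean over all libraries of 0.58, 0.74, 0.40 and -0.40 in wild-type and of -0.06, -0.29, -0.18 and -0.26 in ΔAgo2. Wild-type replicate 4 was below all ΔAgo2 libraries, as for Abcb1b. For the 32 genes between 24 and 26 Mb the medians were 0.50, 0.64, -0.13 and -0.03 in wild-type and -0.33, -0.32, -0.20 and -0.29 in ΔAgo2, without overlap. Whether the DNA of these stretches differs between the lines was not tested.

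**Figure D4:**
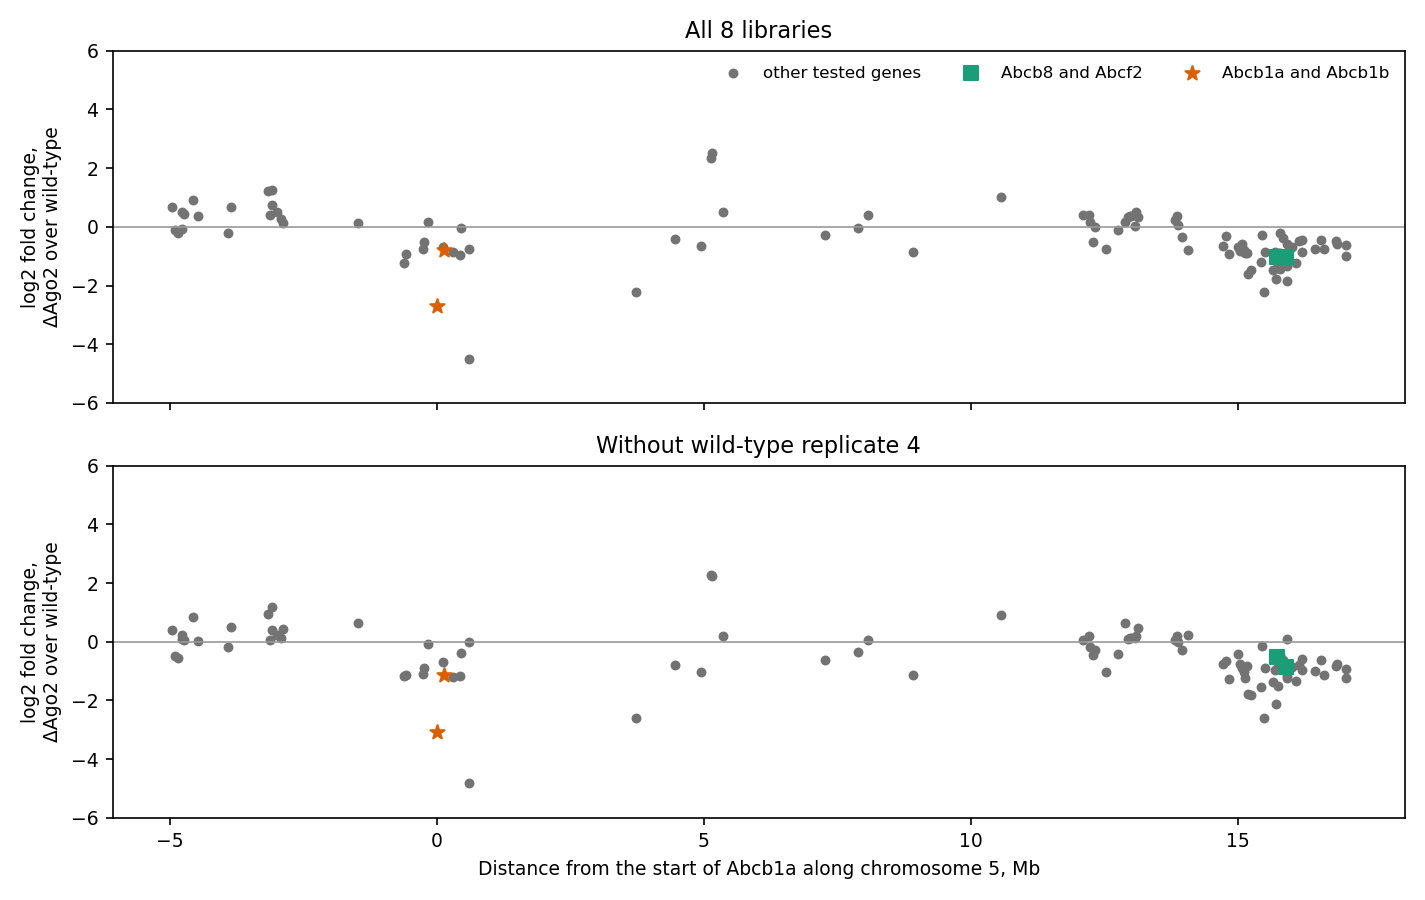
Log2 fold change of ΔAgo2 over wild-type for tested genes of chromosome 5 against distance from the start of Abcb1a in Mb, fitted with all 8 libraries (top) and without wild-type replicate 4 (bottom). Stars mark Abcb1a and Abcb1b, squares Abcb8 and Abcf2 and gray points other genes. Most genes near 0 Mb lie below 0, with Abcb1a at -2.71 and Abcb1b at -0.80 in the top panel, and so do the genes around the squares.

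Annotated promoter windows of both P-glycoprotein genes are shown as a description. Whether these sequences bear on the levels of the genes was not tested. RefSeq promoter windows of 300 bases (GRCm38.p6), running from 250 bases before to 50 bases after a start, were matched for 5 of the 7 members, namely Abcb1a, Abcb1b, Abcc4, Abcc5 and Abcg2, with 8 windows in all; Abcc1 and Abcc3 had none. The RefSeq start of Abcb1a lies 92986 bases upstream of the start of the counted GENCODE gene, inside the span of Rundc3b. The Abcb1a window therefore does not show the start of the counted gene. The RefSeq start of Abcb1b is the start of its GENCODE gene. Capitals mark matches, on either strand, to TGACNNNGC (antioxidant response element core), GGGCGG (GC box) and CCAAT.
Abcb1a promoter, chr5:8566841-8567140, plus strand: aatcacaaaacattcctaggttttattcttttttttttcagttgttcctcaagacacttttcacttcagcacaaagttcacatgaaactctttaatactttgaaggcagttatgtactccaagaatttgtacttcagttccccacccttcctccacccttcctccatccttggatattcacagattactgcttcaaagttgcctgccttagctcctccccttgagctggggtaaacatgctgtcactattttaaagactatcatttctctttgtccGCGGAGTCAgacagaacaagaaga
Abcb1b promoter, chr5:8797897-8798196, plus strand: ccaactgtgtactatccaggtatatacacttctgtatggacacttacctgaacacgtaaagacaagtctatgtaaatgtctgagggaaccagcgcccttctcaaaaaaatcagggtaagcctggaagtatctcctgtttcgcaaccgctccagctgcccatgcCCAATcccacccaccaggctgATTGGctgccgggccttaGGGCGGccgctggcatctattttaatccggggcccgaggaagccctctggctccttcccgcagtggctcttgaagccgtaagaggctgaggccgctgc

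The Abcb1a window was 40.3% GC with 2 CG dinucleotides and held 1 match to TGACNNNGC, whereas 12.4% of the 32851 windows of all genes hold one. The Abcb1b window was 55.0% GC with 12 CG dinucleotides and held 1 GC box and 2 CCAAT matches, which occur in 35.7% and 37.4% of all windows. Neither window held GCGTG, the xenobiotic response element core, which 32.4% of all windows hold. The median over all windows was 52.7% GC and 7 CG dinucleotides. These matches describe letters and not binding.

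Transcription factors and nuclear receptors known to control efflux transporters were measured alongside. Of 21 listed genes 18 passed the filter and 0 passed an adjusted p of 0.05 by edgeR's quasi-likelihood test, with 1 higher (2.72% of all tested genes) and 0 lower (4.62%) at an unadjusted p under 0.05; DESeq2 also called 0. The median log2 fold change was -0.16. Egr1, an immediate-early zinc finger factor, measured 65.9, 105, 110 and 62.0 CPM in wild-type and 159, 163, 115 and 261 CPM in ΔAgo2, without overlap. Its log2 fold change was 1.02 (SE 0.33) with an adjusted p of 0.438 by edgeR's quasi-likelihood test. The xenobiotic receptor genes Nr1i2 (PXR) and Nr1i3 (CAR), classical activators of Abcb1 and Abcc transcription in liver, reached at most 0 and 3 counts in a library. For Nfe2l2, which encodes the oxidative stress factor NRF2, and its inhibitor Keap1 the log2 fold changes were -0.09 (SE 0.28) and -0.31 (SE 0.41), and that of Nfe2l2 was -0.24 without wild-type replicate 4. For Ahr, the aryl hydrocarbon receptor, and Trp53, also on the list of regulators, they were -0.21 (SE 0.54) and -0.68 (SE 0.53). That of Ahr was -0.55 without replicate 4. The signs of Keap1 and Trp53 turned without wild-type replicate 4, to 0.27 and 0.13.

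Efflux is balanced by uptake, so 33 carriers of the solute carrier families that bring drugs into cells were listed. Of these 15 passed the filter, with 0 called at either the adjusted or the unadjusted threshold by edgeR's quasi-likelihood test and 0 at the adjusted threshold by DESeq2, and their median log2 fold change was 0.09. The other 18 reached 0 to 25 counts in their highest library. Of 11 genes for export partners of the transporters and the major vault protein 8 passed the filter, with 0 called at either threshold, 0 by DESeq2 and a median of 0.03.

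Glutathione and its transferases supply the conjugates that MRPs export. Of 30 listed genes 24 passed the filter and 0 passed an adjusted p of 0.05 by edgeR's quasi-likelihood test, with 1 higher (2.72% of all tested genes) and 2 lower (4.62%) at an unadjusted p under 0.05. DESeq2 called 1, Gstk1, and 2.23% of all genes it tested. Their median log2 fold change was -0.50, against -0.11 over all tested genes, and -0.24 against -0.04 without wild-type replicate 4. Gstk1, a glutathione transferase of mitochondria and peroxisomes, had 18, 1, 14 and 1 counts in wild-type and 101, 108, 69 and 38 counts in ΔAgo2. Its groups did not overlap, with a log2 fold change of 3.38 (SE 0.83) and an adjusted p of 0.218 by edgeR's quasi-likelihood test and of 0.000665 by DESeq2. Gsta4, which conjugates the lipid peroxidation product hydroxynonenal, and Mgst3, a microsomal transferase, had -1.39 (SE 0.51) and -1.93 (SE 0.77), with adjusted p of 0.547 and 0.613 by edgeR's quasi-likelihood test. Mgst3 was highest in wild-type replicate 4, at 168 CPM against 11.8 to 58.8 CPM in wild-type replicates 1 to 3, and without that library its log2 fold change was -0.85.

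Finally, the genes whose log2 CPM followed each P-glycoprotein gene most closely over the 8 libraries were listed. For Abcb1a these were Gm14168 (Pearson r = 0.986), Hmgn3 (0.972), a nucleosome-binding protein gene, and 4930412C18Rik (0.971). For Abcb1b they were Ckap2 (0.983), a mitotic spindle protein gene, Gm6297 (0.979) and A430110C17Rik (0.978). Gm14168, Gm6297 and A430110C17Rik reached at most 31, 45 and 32 counts in a library, so their levels lie near the floor. All were picked as the highest coefficients among the tested genes. The correlation between Abcb1a and Abcb1b themselves was 0.842. All these points share the libraries and their scaling, and wild-type replicate 4 is low for each of these genes, so the coefficients are a description over 8 libraries.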

How the data were processed

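Poly(A)-selected stranded paired-end libraries of 4 wild-type and 4 ΔAgo2 LLC cultures were analysed, grouped by the labels. The deposited counts are whole reads per gene without normalization; the authors removed ribosomal reads, mapped to mm10 (STAR in the submitters' processing notes) and counted with featureCounts, whose strand setting and annotation release are not given in the sources used here. A TPM table deposited beside them scales each count by gene length and library size; for the members its lengths stand close to the ratios of annotated exon unions. Names, positions, GC content and lengths came from GENCODE (GRCm38), matched on identifiers without version, and 93 identifiers had no match.

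From the counts, genes were filtered with filterByExpr (14228 left), scaled with TMM and tested with edgeR 4.0.16 (R 4.3.3) by its quasi-likelihood test, two-sided, with genotype as the only term and Benjamini-Hochberg adjustment over all genes. A standard error is the size of a log2 fold change over the root of its F statistic. CPM use TMM-scaled library sizes; correlations used log2(CPM + 0.5). On simulated counts with 200 of 14228 genes changed by a log2 of 2, 108 were called. The simulated counts were drawn independently and held no library like wild-type replicate 4, so this share does not carry over to these data. Library totals were 39628101 to 68530912 counts, and the counting error of a gene depends on its own counts.

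The members and all gene lists were chosen with earlier results of these data known, so members get no test. Named genes are the 7 members; of the other ABC genes up to 4 per direction with the smallest p under 0.05; tested genes of the locus list; of each further list up to 3 per direction at p under 0.05, with 6 regulators in any case; the 3 genes most correlated with Abcb1a and with Abcb1b; and Ago2. Abcb4, Abcb8, Abcc2, 9330182L06Rik and the marker genes were named after their values were seen. Alternatives were DESeq2 1.42.0, limma 3.58.1 (voom with quality weights, and log2(TPM + 1) or log2(TPM + 0.1)), other scalings and filters, a replicate block, a GC correction, and each library left out. Same-numbered libraries had correlations of deviations of -0.138, -0.0491, 0.384 and 0.0278, so numbers were not taken as pairs.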

Additional observations from a re-analysis of the deposited data

Results flagged for a closer look

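A sample far from the other 3 of its group by Dixon's criterion on log2 CPM (the gap to the nearest sample as a fraction of the group's range, above the critical value at 95%) was found in 9 of the 74 groups of 4 examined. Chance alone gives about 1 in 20 for independent groups, but the groups include genes chosen for their correlation with Abcb1a or Abcb1b, so that rate is no comparison here. Abcb1b had such a sample in both genotypes, wild-type replicate 4 (gap 0.914 of the range) and ΔAgo2 replicate 4 (0.907), each the lowest. For Abcc1 it was ΔAgo2 replicate 3, the highest (0.899). Wild-type replicate 4 was also the low sample for the Abcb1 neighbor Dmtf1 (0.865) and for genes that followed Abcb1a or Abcb1b, namely 4930412C18Rik (0.922), Ckap2 (0.890), Gm6297 (0.940) and A430110C17Rik (0.851). In ΔAgo2, replicate 4 was the low sample for 4930412C18Rik (0.968). Gm6297 and A430110C17Rik had at most 45 and 32 counts in a library. The 6 wild-type samples are all from the library with the lowest mitochondrial share (0.54%), and the part of that library's composition in these gaps was not tested. The within-library ratio of Abcb1a to Abcb1b had no such sample in either genotype.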

How the results depend on the processing

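The log2 fold change of Abcb1a ranged from -3.08 to -1.78 over all alternatives and that of Abcb1b from -1.14 to -0.24, with the smallest sizes on TPM and the largest without wild-type replicate 4. The lower ratio of Abcb1a to Abcb1b in ΔAgo2, -1.77 on the log2 scale, ranged from -1.93 to -1.54 with each library left out, and the order of the members by length-scaled level was unchanged with CPM per kilobase of the longest transcript (7 of 7 ranks). The number of called members was 0 and became 1 with DESeq2, with limma-voom with quality weights, without a filter on low counts and with the GC correction plus replicate block, in each case Abcb1a, and ranged from 0 to 2 with each library left out, the 2 being Abcb1a and Abcb1b without wild-type replicate 4. DESeq2 called 1 other ABC gene, Abcg1, and the other alternatives called 0. The number of called genes over the whole table, 42, was 399 with DESeq2, 257 with limma-voom with quality weights, 143 without the filter, 6 with at least 1 CPM in at least 4 libraries, 15 on log2(TPM + 1), 71 with the GC correction and 1 to 113 with each library left out (1 without ΔAgo2 replicate 1, 113 without wild-type replicate 4). With the replicate block it was 18, and 65 with the block and the GC correction; only replicate 3 libraries correlated best with their own number, and the block alone changed no call among the members.

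Signs of small differences turned. TPM moved the median of all genes from -0.11 to 0.15 with log2(TPM + 1) and to 0.22 with log2(TPM + 0.1); relative to it Abcc1 and Abcc5 lay within 0.1 of 0. With these the log2 fold changes were 0.213 and 0.221 for Abcc1, 0.208 and 0.223 for Abcc5, 0.50 and 0.62 for Dmtf1, 0.171 and 0.172 for Nfe2l2, 0.113 and 0.117 for Keap1, 0.288 and 0.393 for Ahr, and 0.055 for Slc25a40 with the smaller pseudocount. With limma-voom with quality weights they were -0.390 for Abcc4, 0.139 for Abcc5, 0.032 for Mgst3, 0.279 for Keap1 and 0.228 for Trp53. With library size alone they were 0.031 for Abcc5 and 0.0037 for Dmtf1. With the replicate block they were 0.0097 for Abcc1, 0.024 for Abcc5, 0.317 for Dmtf1 and 0.147 for Ahr. With the block and the GC correction they were 0.069 for Abcc1, 0.052 for Abcc5, -0.167 for Abcg2, 0.047 for Dmtf1 and 0.172 for Keap1. With the GC correction alone they were -0.294 for Abcg2 and 0.133 for Keap1. With each library left out the ranges that crossed 0 were -0.688 to 0.393 for Abcc1, -0.177 to 0.380 for Abcc4, -0.214 to 0.271 for Abcc5, -0.169 to 1.06 for Rundc3b, -0.387 to 0.256 for Dmtf1, -0.243 to 0.087 for Nfe2l2, -0.533 to 0.274 for Keap1, -0.547 to 0.268 for Ahr, -0.971 to 0.126 for Trp53 and -0.047 to 0.603 for Ago2. The cause was not tested. The median of the 11 neighbors between 8 and 10 Mb, tried after the data were seen, was -1.09 without wild-type replicate 4, -0.82 with the GC correction and -0.76 with DESeq2. Low counts limit the precision for Abcg1, and the 18 ABC genes under the filter did not enter the filtered test.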
